A study of Rattus norvegicus with 10 samples.

Results

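The comparison described here sets the left ventricle of rats kept at 34 °C for 30 days (AC30) against that of rats kept at 34 °C for 2 days (AC2d), gene by gene. It uses 4 of the 10 arrays of the series directly, 2 for each group, chosen by the group that the sample labels name, and the other 6 arrays serve for the estimate of spread and for values set beside it. All animals were albino rats of the Sabra strain, untreated or exposed to heat, with no genetic alteration named in the labels, and they were 3 weeks old when the experiment began. Each array held RNA from a separate pool of 5 left ventricles. The control rats had no heat and were labelled 1 month old. The AC2d rats had 2 days at 34 °C and were labelled 1 month old, while the AC30 rats had 30 days at 34 °C and were labelled 2 months old. Deacclimated rats (DeAC) had 30 days at 34 °C and then 30 days at 24 °C, and reacclimated rats (ReAC) had the same course followed by another 2 days at 34 °C. These groups were both labelled 3 months old. AC30 and AC2d therefore differ in age as well as in the length of heat, and in this comparison the 2 cannot be told apart.

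Heat acclimation is the slow adjustment of an animal to weeks of moderate heat. In rats it is known to lower heart rate and metabolic rate, to move ventricular myosin towards the slow heavy chain and to raise the reserve of heat shock proteins. The first days are usually described as a phase of transient strain, before the lasting state is reached. The comparison asks which transcripts separate the late state from the early one, and which early changes are still there after the longer stay.

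The 10 arrays were closely matched in overall signal, with median log2 values between 5.95 and 6.10. The summed signal of 13 ventricular cardiomyocyte markers lay between 16.37 and 16.47 log2 units on every array, and the brightest of these genes are also expressed in atrium. The summed signal of 13 atrial markers ranged far more widely, from 12.91 to 15.53 log2 units. The control pools stood apart from each other: 57 genes differed by over 1 log2 unit between them, against 0 genes between the AC2d pools and 1 gene between the AC30 pools. Because all groups share 1 estimate of spread, genes that differed between the control pools have wide errors here. For the genes described, values from a fit without the control arrays are given where they change a call. That fit called more genes, and settings that called fewer are mostly given as totals near the end.

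Between 2 and 30 days of heat, 109 of 14324 genes (0.761%) passed the test, which is an adjusted p under 0.05, and such genes are referred to as called. Of these, 47 (0.328%) were higher and 62 (0.433%) lower in AC30. These shares are the ones to set beside each count of called list members in this comparison. At an unadjusted p under 0.05 there were 1692 genes (11.8%). The changes were modest in size, with a median of 0.43 log2 units among the called genes, and 35 of them changed by at least 0.5 log2 units. A rise of at least 1 log2 unit was called for 2 genes, Cxcl13 and Cnn1, and a fall of that size also for 2, Reg3g and Fam111a. The median change over all genes was 0.009 log2 units and the median standard error 0.10.

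**Figure D1:**
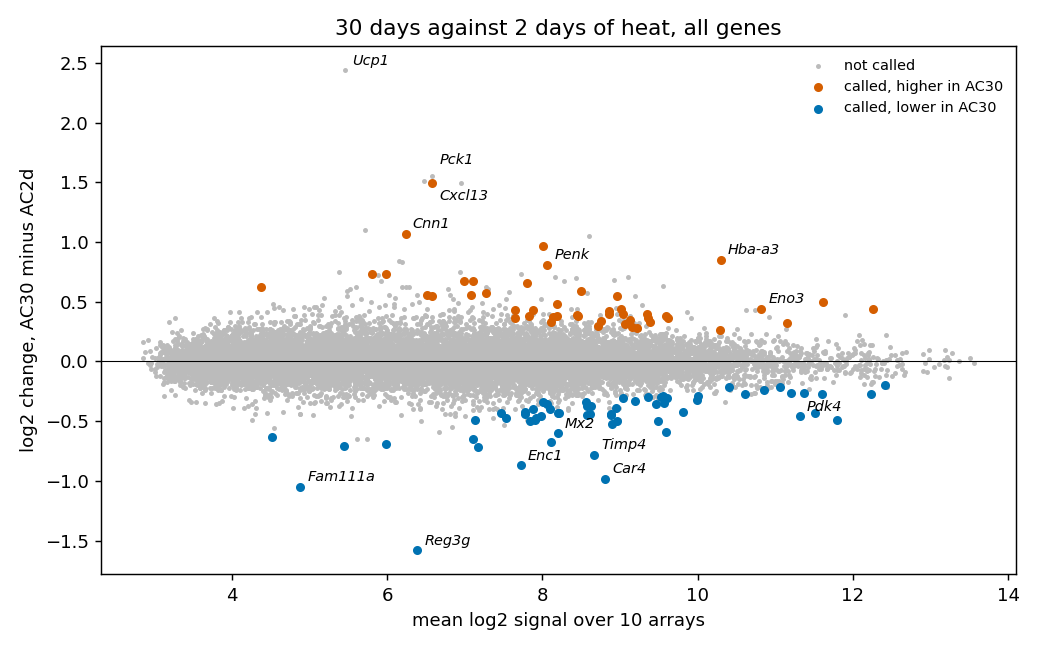
Each point is a gene, with its mean log2 signal over 10 arrays on the horizontal axis and its log2 change from AC2d to AC30 on the vertical axis, and called genes are coloured by direction. Called genes spread over most of the range of signal, and Ucp1 at 2.44 and Pck1 at 1.55 log2 units lie high without being called.

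How many genes were called depended on which arrays were fitted. All 109 changed in the same direction in every alternative fit in which they were present. Many of these fits keep the same AC30 and AC2d values, which fixes the direction in advance. Leaving out a single pool also cannot turn it where the pools do not overlap, so the kept direction says little about stability. Leaving out the control arrays gave 358 calls (2.5% of all genes), 207 higher (1.45%) and 151 lower (1.05%). That fit called all 109 genes too. When 1 array of AC30 or AC2d was left out, the count fell to 19 without AC30 pool 1, 11 without AC2d pool 1 and 15 without AC2d pool 2, and rose to 168 without AC30 pool 2. Of the 109 genes, 10 passed in all 4 of these fits: Car4, Cxcl13, Enc1, Eno3, Hba-a3, Hbb, Hbb-b1, Mx2, Penk and Reg3g. At the other end, 30 passed in none of them.

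Haemoglobin transcripts were higher after 30 days. Hba-a3, an alpha globin gene, measured 9.95 and 9.80 log2 units in the AC2d pools and 10.74 and 10.71 in the AC30 pools. Its control pools lay between them, at 10.35 and 10.25, so that AC2d was the lowest of the groups and AC30 the highest. The change was 0.85 ± 0.06 log2 units (SE, n = 2 pools a group), a fold of 1.81, with an adjusted p of 3.75e-05. The beta globin gene Hbb rose from 12.16 in both AC2d pools to 12.64 and 12.56 in AC30, a change of 0.44 ± 0.05 (adjusted p = 0.00117). Hbb-b1, a second beta globin gene, measured 11.57 and 11.54 in AC2d and 12.06 and 12.06 in AC30 (0.50 ± 0.05, adjusted p = 0.000323). The AC30 pools of both beta globin genes were above all 8 pools of the other groups.

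Alas2, which makes the first enzyme of haem synthesis in red cell precursors, followed the globins. It measured 8.19 and 8.26 in AC2d and 8.78 and 8.85 in AC30, a rise of 0.59 ± 0.07 with an adjusted p of 0.00133. Against control, Alas2 was lower in AC2d by -0.47 log2 units (adjusted p = 0.00256), while AC30 differed from control by 0.12 (adjusted p = 0.416). Of 11 measured erythroid genes, these 4 were called higher (36.4%, against 0.328% of all genes) and 0 lower, and the list's median change was 0.11 log2 units. The summed signal of the list was 13.21 and 13.18 in AC2d, 13.70 and 13.66 in AC30, and 13.38 in both control pools. Slc4a1, the anion exchanger of the red cell membrane, was named after its values were seen. It went the other way, at -0.44 ± 0.12 (adjusted p = 0.114), and without the control arrays its fall was called (adjusted p = 0.0262). Ahsp, Car1 and Rhag of the same list lay in the lowest 25% of all signals. Leaving out AC2d pool 1 moved the adjusted p of Alas2 to 0.0529, while the 3 globin genes stayed called without any single AC30 or AC2d pool. In RNA from whole tissue, more cells of a type and more RNA per cell cannot be told apart, and near-identical globin copies can share a probe set's signal.

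Some genes of antigen presentation were also higher. The major histocompatibility complex of the rat is called RT1. Its class II molecules, built from an alpha and a beta chain, present peptides to T helper cells and are carried by macrophages, dendritic cells and B cells. RT1-Da, the alpha chain of 1 class II molecule, measured 8.58 and 8.62 in AC2d and 9.20 and 9.11 in AC30 (0.55 ± 0.07, adjusted p = 0.00133). RT1-Ba, the alpha chain of another, measured 7.38 and 7.35 in AC2d and 8.09 and 7.96 in AC30 (0.66 ± 0.08, adjusted p = 0.00232). In both genes the AC30 pools were clear above the AC2d pools, as in 23.1% of all genes. RT1-Da and RT1-Ba stood differently towards control. RT1-Da measured 8.51 and 8.64 in control, 0.03 below AC2d (adjusted p = 0.935), and AC30 was 0.58 above control (adjusted p = 0.000201), while RT1-Ba was below control in AC2d by -0.41 (adjusted p = 0.019) and 0.25 above it in AC30 (adjusted p = 0.0942).

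The partner beta chains were not called. RT1-Bb, named after its values were seen like RT1-Db1 and Cd74, measured 6.92 and 7.11 in AC2d and 7.59 and 7.68 in AC30, a difference of 0.62 ± 0.21 (adjusted p = 0.223). Its control pools, at 7.76 and 6.83, lay further apart than these groups, and without the control arrays its adjusted p was 0.00282. RT1-Db1 differed by 0.34 ± 0.12 (adjusted p = 0.232). Cd74, the invariant chain that escorts class II molecules, differed by 0.20 ± 0.05 (adjusted p = 0.0822, and 0.0293 without the control arrays). RT1-CE5, a class I gene, rose from 6.63 and 6.54 in AC2d to 7.14 and 7.38 in AC30 (0.67 ± 0.10, adjusted p = 0.00915). The rise of RT1-Da had an adjusted p of 0.0505 without AC2d pool 1, and that of RT1-Ba 0.0505 and 0.0566 without AC2d pool 1 or 2. RT1-CE5 was at 0.107 and 0.175 without the same pools. RT1 genes are many and alike, and the probe sets may not tell all of them apart.

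The promoters of class II genes share short elements, 1 of which is known as the Y box, a binding site of the factor NF-Y. The promoters of the 4 class II chains named above are shown, of which RT1-Da and RT1-Ba were called and RT1-Bb and RT1-Db1 were not. Each holds the letters CTGATTGG within the 120 bases before its start. That match was part of the reason for showing them, so its presence in all 4 is no result. The stretches, from RefSeq on build GRCr8, are chr20:4515295-4515414 on the plus strand for RT1-Da, chr20:4576937-4577056 on the plus strand for RT1-Ba, chr20:4604119-4604238 on the minus strand for RT1-Bb and chr20:4560163-4560282 on the minus strand for RT1-Db1. Each is written 5′ to 3′ on the strand of its gene, and capitals mark the match.
RT1-Da: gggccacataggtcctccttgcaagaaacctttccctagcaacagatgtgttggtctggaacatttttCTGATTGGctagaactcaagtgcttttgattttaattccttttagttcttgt
RT1-Ba: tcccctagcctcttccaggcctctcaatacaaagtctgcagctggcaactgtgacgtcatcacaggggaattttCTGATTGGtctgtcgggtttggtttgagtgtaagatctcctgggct
RT1-Bb: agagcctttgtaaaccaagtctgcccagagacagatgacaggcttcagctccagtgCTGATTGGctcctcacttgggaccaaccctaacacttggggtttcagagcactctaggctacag
RT1-Db1: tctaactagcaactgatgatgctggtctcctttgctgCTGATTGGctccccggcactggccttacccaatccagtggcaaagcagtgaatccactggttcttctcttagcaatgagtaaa
The match begins 52, 46, 64 and 83 bases before the annotated start of RT1-Da, RT1-Ba, RT1-Bb and RT1-Db1. Searched on both strands, the same 8 letters occur in 710 of 33469 rat promoter windows of that length (2.12%). The match describes the sequence and is no evidence of binding in these hearts.

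Cxcl13, a chemokine that attracts B cells, rose most among the called genes. It measured 6.31 and 6.72 log2 units in AC2d, 7.94 and 8.07 in AC30, 6.0 and 5.91 in control, 5.88 and 6.22 in DeAC and 6.41 and 6.28 in ReAC. The AC30 pools were far above all others, and the AC2d pools were next to the pools without heat. The change of 1.49 ± 0.14 amounts to a fold of 2.81 (adjusted p = 0.000243). Cd3g, a chain of the T cell receptor complex, rose by 0.62 ± 0.12 (adjusted p = 0.0337), from 4.04 and 3.88 to 4.41 and 4.76, all low signals.

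Other immune markers moved less. Of 21 macrophage markers, 2 were called higher (9.52%, against 0.328% of all genes) and 0 lower, with a median change of 0.11. Both called markers were the class II chains RT1-Da and RT1-Ba. The summed signal of the list was 12.19 and 12.28 in AC2d and 12.39 and 12.41 in AC30. Of 19 lymphocyte markers, 1 was called higher, Cd3g (5.26%, against 0.328% of all genes), and the median was 0.06. The lymphocyte sum was 10.08 and 9.99 in AC2d and 10.09 and 10.15 in AC30, and 6 of the 19 markers, Cd3g among them, lay in the lowest 25% of all signals. The part of immune cell numbers in the RT1, Cxcl13 and Cd3g changes was not tested. Cd3g stayed called without AC30 pool 1 (adjusted p = 0.0341) but not without AC30 pool 2 (0.113), AC2d pool 1 (0.247) or AC2d pool 2 (0.302).

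Penk, which encodes the precursor of the enkephalin peptides, was higher after 30 days, and its DeAC and ReAC pools lay higher still. It measured 7.37 and 7.23 in AC2d, 8.10 and 8.11 in AC30, 8.63 and 8.55 in DeAC and 8.86 and 8.88 in ReAC, with control at 7.62 and 7.30. The groups thus stood in the order of their labelled ages, and AC2d was not called against control (adjusted p = 0.511). The AC30 change was 0.81 ± 0.09 (adjusted p = 0.00117). Eno3, the muscle form of the glycolytic enzyme enolase, showed another pattern. It measured 10.67 and 10.57 in control, 10.85 and 10.85 in AC2d, 11.28 and 11.30 in AC30, 10.73 and 10.70 in DeAC and 10.67 and 10.61 in ReAC. Eno3 was thus already above control in AC2d, by 0.23 (adjusted p = 0.0184), rose by a further 0.44 ± 0.05 in AC30 (adjusted p = 0.000567), and lay near control in the groups that had left the long heat. Of 39 genes of glycolysis, glucose transport and glycogen, Eno3 was the 1 called higher, 0 were called lower and the median was -0.02.

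**Figure D2:**
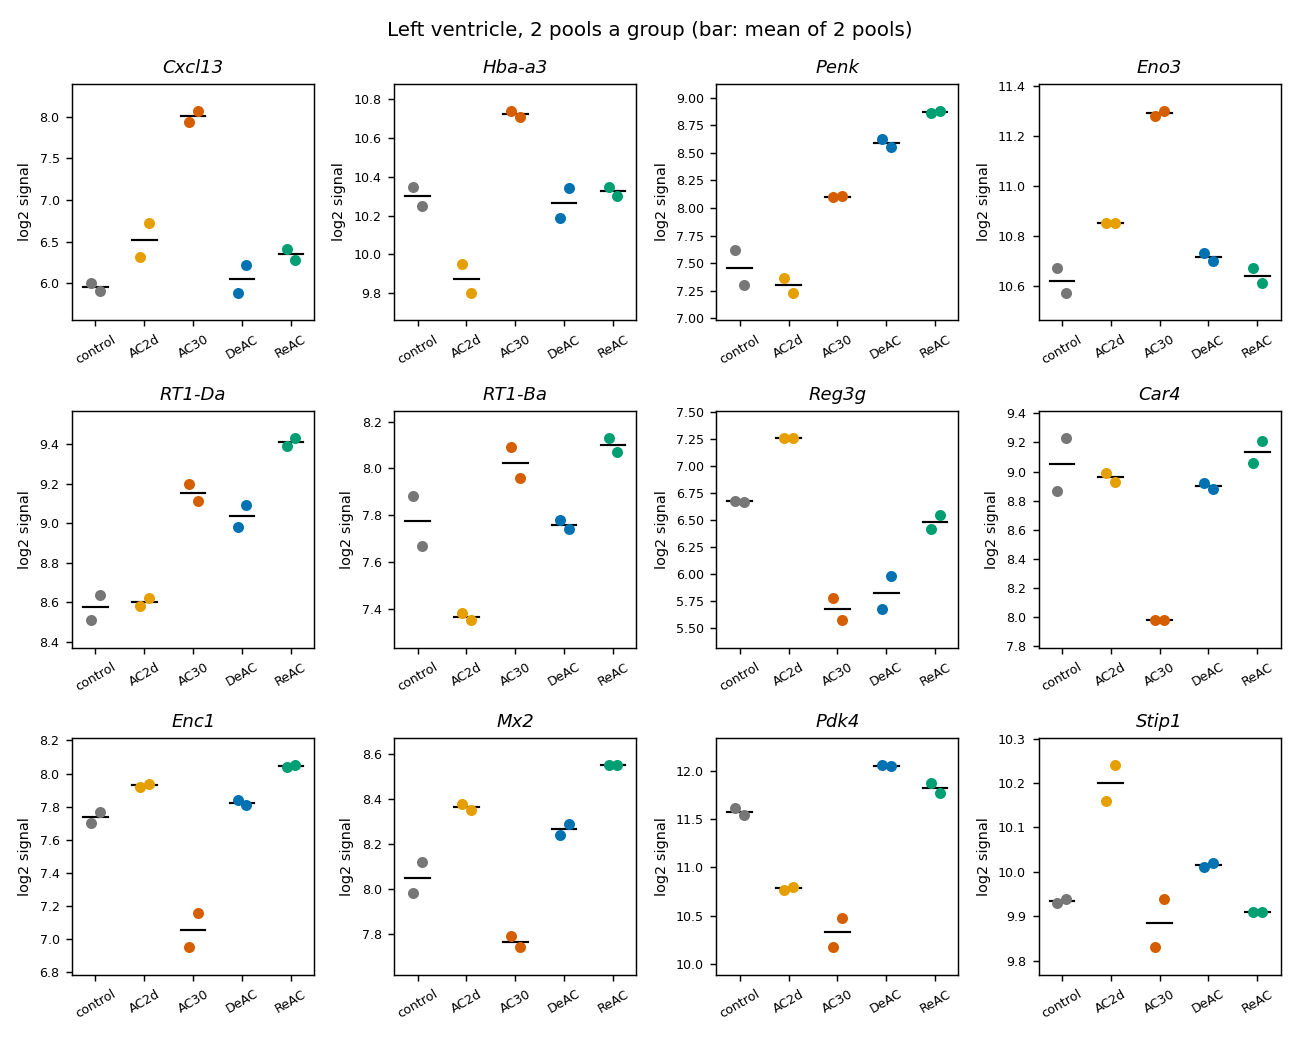
Each panel shows the log2 signal of 1 gene, with 1 point per pool, 2 pools for each of 5 groups, and a bar at the group mean; the vertical axes differ and do not start at 0. Cxcl13, Hba-a3 and Eno3 are highest in AC30, Penk lies higher in DeAC and ReAC than in AC30, Reg3g and Stip1 are highest in AC2d, and Car4 and Enc1 are lowest in AC30.

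Other called rises were those of Cnn1, Ccn3, Tcf21, Krt19, Art1, C6 and Tm4sf4. Cnn1, the smooth muscle protein calponin, measured 5.94 and 6.21 in AC2d and 7.44 and 6.84 in AC30 (1.07 ± 0.19, adjusted p = 0.0242). Ccn3, a secreted matricellular protein, measured 7.90 and 7.97 in AC2d, 8.99 and 8.83 in AC30 and 7.04 and 7.17 in DeAC (0.97 ± 0.20, adjusted p = 0.0379). The control pools of Ccn3 were at 8.40 and 7.5, so that gene had a wide error, and without the control arrays its adjusted p was 1.18e-05. Tcf21, a transcription factor of cardiac fibroblasts, rose by 0.39 ± 0.08 (adjusted p = 0.0478). It was the 1 called higher of 16 fibroblast markers (6.25%, against 0.328% of all genes), of which 0 were called lower and 11 lay above 0. Krt19, a keratin of the mesothelial layer that covers the heart, rose by 0.55 ± 0.11 (adjusted p = 0.0415) and was the marker with the smallest p of 12 mesothelial and epicardial genes. The summed signal of those 12 was 10.35 and 10.42 in AC2d, 10.57 and 10.49 in AC30 and 9.91 and 9.92 in DeAC.

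Art1, an ADP-ribosyltransferase of the muscle cell surface, rose from 6.68 and 6.76 to 7.42 and 7.36 (0.67 ± 0.12, adjusted p = 0.0271). C6, a component of the terminal complement pathway, rose by 0.73 ± 0.15 (adjusted p = 0.0476). Tm4sf4, a membrane protein of the tetraspanin-like family, rose by the same 0.73, with an SE of 0.14 and an adjusted p of 0.031. None of Cnn1, Ccn3, Tcf21, Krt19, Art1, C6 and Tm4sf4 stayed called without AC30 pool 1 or either AC2d pool. For Cnn1 the adjusted p was 0.229 without AC30 pool 1, 0.291 without AC2d pool 1 and 0.14 without AC2d pool 2, and its change was 0.77 without AC30 pool 1 and 1.36 without AC30 pool 2. For the other 6 genes the adjusted p lay between 0.224 and 0.407 in those fits. Ccn3, Krt19, Art1 and C6 also lost their calls without AC30 pool 2, at 0.0754, 0.0923, 0.0536 and 0.086.

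The largest fall was that of Reg3g, a secreted lectin of the regenerating family that binds bacteria in the gut and is induced by inflammatory signals in other tissues. It measured 7.26 in both AC2d pools and 5.78 and 5.57 in AC30, against 6.68 and 6.67 in control. The early change and the late one thus lay on opposite sides of control: 0.58 in AC2d (adjusted p = 0.0208) and -1.0 in AC30 (adjusted p = 0.000288). From AC2d to AC30 the signal fell by 1.58 ± 0.12 log2 units, so that AC2d was 2.99-fold higher (adjusted p = 3.75e-05). DeAC stayed low, at 5.67 and 5.98, and ReAC measured 6.42 and 6.55.

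Car4, a membrane-bound carbonic anhydrase found on capillary endothelium and muscle membranes, fell by 0.98 ± 0.09 (adjusted p = 0.000243). Its AC30 pools were both at 7.98, and the 8 pools of the other groups lay between 8.87 and 9.23. Enc1, an actin-binding protein of the kelch family, fell by 0.87 ± 0.08 (adjusted p = 0.000243), from 7.92 and 7.94 in AC2d to 6.95 and 7.16 in AC30, with all other pools at 7.70 or higher. Timp4, an inhibitor of matrix metalloproteinases that is abundant in the heart, measured 8.87 and 8.65 in AC2d and 7.90 and 8.05 in AC30 (-0.78 ± 0.11, adjusted p = 0.00541). For Car4, Enc1 and Timp4, AC2d was not called against control (adjusted p = 0.803, 0.299 and 0.959), and the AC30 pools were the lowest of all 10. Timp4 lost its call without AC30 pool 1 (adjusted p = 0.0991) and without AC2d pool 1 (0.167).

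Fam111a, a protease gene linked to DNA replication and virus restriction, fell by 1.05 ± 0.15 (adjusted p = 0.00609). It measured 5.38 and 5.85 in AC2d, 4.50 and 4.64 in AC30 and 5.16 and 5.09 in control, and DeAC and ReAC were as low as AC30. The AC2d pools lie apart for this gene, and the adjusted p was 0.134 without AC2d pool 2 and 0.102 without AC30 pool 1. Zim1, an imprinted zinc finger gene, fell by 0.69 ± 0.13 (adjusted p = 0.0337), with an adjusted p between 0.0848 and 0.291 when any AC30 or AC2d pool was left out. The unnamed locus LOC108353138 fell by 0.71 ± 0.12 (adjusted p = 0.0242). It lay above control in AC2d by 0.61 (adjusted p = 0.0202) and was called without AC30 pool 2, but not without AC30 pool 1 (0.229), AC2d pool 1 (0.207) or AC2d pool 2 (0.264).

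Several called falls were of genes known from the endothelium. Apold1, an early-response gene of endothelial cells, measured 7.02 and 7.17 in AC2d and 6.27 and 6.48 in AC30 (-0.72 ± 0.12, adjusted p = 0.0211). The following genes were named after their values were seen. Gpihbp1, which carries lipoprotein lipase to the capillary lumen, measured 9.11 and 9.09 in AC2d and 8.66 and 8.50 in AC30 (-0.52 ± 0.06, adjusted p = 0.00192). Klf2, a transcription factor induced by blood flow, measured 8.06 and 8.0 in AC2d and 7.61 and 7.52 in AC30 (-0.46 ± 0.07, adjusted p = 0.0131). Efnb2, a ligand of arterial endothelium, fell by 0.47 ± 0.08 (adjusted p = 0.0234), and Nrp2, a receptor for semaphorins and vascular growth factors, by 0.44 ± 0.08 (adjusted p = 0.0304). Epas1, the hypoxia-inducible factor 2 alpha, fell by 0.26 ± 0.05 (adjusted p = 0.0279). In each of these 6 genes both AC30 pools were below both AC2d pools, as were the AC30 pools of 2678 of all genes (18.7%).

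The list of 13 general endothelial markers had 0 calls in either direction. Its median change was -0.20 log2 units, against 0.01 over all genes, and 2 of 13 members were above 0. Cdh5, the adhesion molecule of endothelial junctions, was named after its values were seen and differed by -0.34 ± 0.07 (adjusted p = 0.0614). Tek, the angiopoietin receptor, differed by -0.24 ± 0.05 (adjusted p = 0.0623). Flt1 and Tie1 of the same list differed by -0.20 and -0.18 (adjusted p = 0.0997 and 0.28). Without the control arrays, 4 of the 13 were called lower, where 1.05% of all genes were, with Cdh5 at an adjusted p of 0.0145 and Tek at 0.0262. The summed signal was 12.53 and 12.56 in AC2d and 12.33 and 12.41 in AC30, and 12.43 to 12.68 in the other groups. The part of endothelial cell number in the falls of Car4, Apold1, Gpihbp1 and Klf2 was not tested. Apold1 was not called without AC30 pool 1 (0.222), AC2d pool 1 (0.167) or AC2d pool 2 (0.26), Klf2 was at 0.057, 0.247 and 0.14 without the same pools, and Gpihbp1 lost its call without AC2d pool 1 alone (0.0548). Efnb2, Nrp2 and Epas1 lay between 0.213 and 0.275 without AC30 pool 1 or either AC2d pool.

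Other called falls of small size were those of Sparc, Lamc1, Col4a1 and Rgs5. Sparc, a collagen-binding protein, fell by 0.20 ± 0.04 (adjusted p = 0.0242) and Lamc1, the laminin gamma 1 chain, by 0.24 ± 0.05 (adjusted p = 0.0364). Both belong to a list of 47 proteoglycan, elastic fibre and matricellular genes, of which Ccn3 alone was called higher, 31 lay above 0 and the median was 0.09. Col4a1, a chain of basement membrane collagen named after its values were seen, fell by 0.42 ± 0.07 (adjusted p = 0.0112), as the 1 called of 25 collagens. The fibrillar collagens Col1a1 and Col3a1 differed by -0.01 and -0.07 and were not called. Rgs5, a marker of pericytes, fell by 0.27 ± 0.05 (adjusted p = 0.0269). None of these 4 falls was called without AC30 pool 1, AC2d pool 1 or AC2d pool 2, with an adjusted p between 0.119 and 0.294. Lamc1 was also not called without AC30 pool 2 (0.0742).

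Some genes known to answer glucocorticoid hormones were also among the called falls. Glucocorticoids, the adrenal steroids released in stress, raise a known set of transcripts in many tissues. Of 30 measured genes of this list, 4 were called lower (13.3%, against 0.433% of all genes) and 0 higher. The list's median was -0.07, and 13 members lay above 0. Nfkbia, the inhibitor of the factor NF-kB, measured 9.32 and 9.47 in AC2d and 8.86 and 8.93 in AC30 (-0.50 ± 0.10, adjusted p = 0.0416). Errfi1, a feedback inhibitor of the epidermal growth factor receptor, measured 8.64 and 8.68 in AC2d and 8.22 and 8.19 in AC30 (-0.45 ± 0.07, adjusted p = 0.00894). Sgk1, a kinase that regulates ion channels, measured 8.96 and 8.89 in AC2d and 8.34 and 8.60 in AC30 (-0.45 ± 0.09, adjusted p = 0.0337). In all 3 genes AC2d was not called against control (adjusted p = 0.304, 0.921 and 0.845). Both AC30 pools were below both AC2d pools in each, as in 18.7% of all genes.

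Pdk4, the fourth called member, had fallen early and fell further. This kinase shuts down pyruvate dehydrogenase and so turns muscle from glucose to fat as fuel, and it also answers fatty acids through PPAR receptors. It measured 11.62 and 11.54 in control, 10.77 and 10.80 in AC2d, 10.17 and 10.48 in AC30, 12.06 and 12.05 in DeAC and 11.88 and 11.77 in ReAC. The groups did not overlap, and the order ran from DeAC at the top to AC30 at the bottom. AC2d was below control by -0.79 (adjusted p = 0.000108), and the step from AC2d to AC30 was -0.46 ± 0.08 (adjusted p = 0.0169). Other members did not follow: Fkbp5, a cochaperone of the glucocorticoid receptor, differed by -0.19 (adjusted p = 0.626) and Zbtb16 by 0.08 (adjusted p = 0.64). Nfkbia, Errfi1, Sgk1 and Pdk4 were each called without AC30 pool 2 apart from Nfkbia (0.0806). Without AC30 pool 1 or either AC2d pool none of the 4 was called, with an adjusted p between 0.0668 and 0.347. The change of Pdk4 was -0.30 without AC30 pool 1 and -0.62 without AC30 pool 2.

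The wider list of fuel genes moved by small amounts. Of 37 genes of fatty acid uptake and oxidation, 1 was called lower (2.7%, against 0.433% of all genes), 5 were above 0 and the median was -0.10 log2 units. The called gene, Acadl, the long-chain acyl-CoA dehydrogenase of mitochondria, was named after its values were seen and fell by 0.27 ± 0.05 (adjusted p = 0.0337). Without the control arrays 6 of the 37 were called lower (1.05% of all genes) and 0 higher. Of 25 PPAR targets, uncoupling and ketone enzymes, Pdk4 was the 1 called and the median was -0.14. The 78 genes of oxidative phosphorylation and 16 of the citric acid cycle had 0 calls, where 0.761% of all genes were called. Acadl lost its call without AC30 pool 1 (0.246), AC2d pool 1 (0.284) or AC2d pool 2 (0.279).

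**Figure D3:**
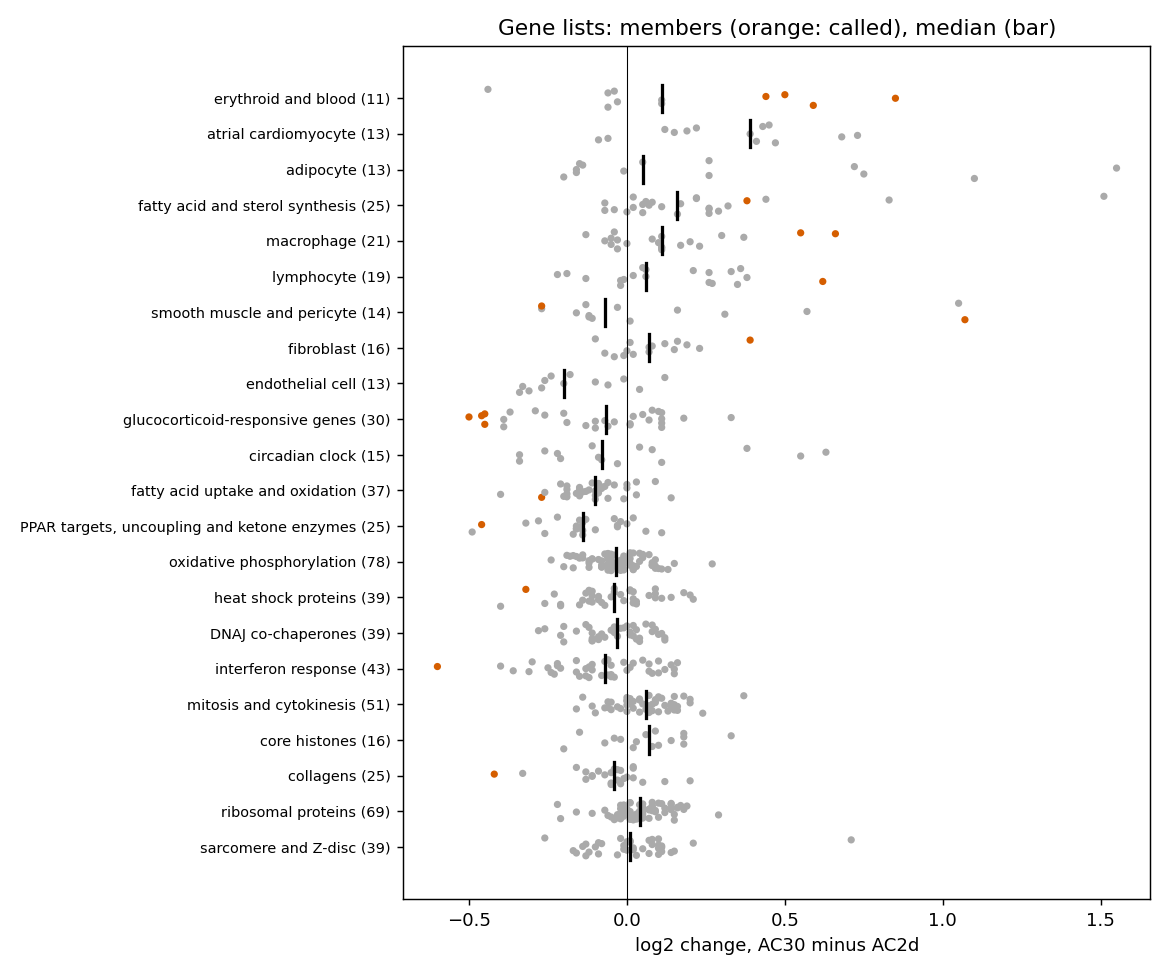
Each row is a gene list with its number of measured genes in parentheses, each point the log2 change of 1 gene from AC2d to AC30, orange where called, and the bar is the list's median. The erythroid list has 4 called rises and the glucocorticoid list 4 called falls, while the medians of the lists shown lie between -0.20 for endothelial markers and 0.39 for atrial markers.

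Signalling through cytokines gave 2 single calls. Cish, an inhibitor that cytokine receptors induce through STAT5, measured 8.47 and 8.31 in AC2d and 7.56 and 7.88 in AC30 (-0.67 ± 0.13, adjusted p = 0.0321). It was the 1 called of 28 genes of the Jak-Stat pathway, which the study brought forward on these samples. Mx2, an antiviral protein induced by interferon, measured 7.98 and 8.12 in control, 8.38 and 8.35 in AC2d and 7.79 and 7.74 in AC30. It was thus above control early (0.32, adjusted p = 0.0235) and below it late (-0.28, adjusted p = 0.0188), and the step between was -0.60 ± 0.07 (adjusted p = 0.000957). Mx2 was the 1 called of 43 interferon response genes, whose median was -0.07. Cish was not called without AC30 pool 1 (0.246), AC2d pool 1 (0.338) or AC2d pool 2 (0.212).

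Some genes that were above control at 2 days were lower at 30 days than at 2 days. Both steps use the same 2 AC2d pools with opposite sign, so noise in those pools alone can give this pattern. The same limit applies to Reg3g, Mx2 and LOC108353138 above, and to H19 and Igf2 below. It also applies to genes below control at 2 days and higher at 30 days, such as Hba-a3, Alas2 and RT1-Ba. Stip1, which passes client proteins between the chaperones HSP70 and HSP90, was named after its values were seen. It measured 9.93 and 9.94 in control, 10.16 and 10.24 in AC2d and 9.83 and 9.94 in AC30. The rise at 2 days was 0.26 (adjusted p = 0.0158), AC30 differed from control by -0.05 (adjusted p = 0.67), and the step between was -0.32 ± 0.05 (adjusted p = 0.015). Hsph1, a member of the HSP110 family, measured 8.33 and 8.31 in control, 8.73 and 8.86 in AC2d and 8.70 and 8.66 in AC30. It was called higher than control at both times, by 0.48 (adjusted p = 0.00412) and 0.36 (adjusted p = 0.00945), and the difference between the heat groups was -0.11 ± 0.08 (adjusted p = 0.634). Its 95% interval runs from -0.28 to 0.05. Stip1 was not called without AC30 pool 1 (0.166), AC2d pool 1 (0.118) or AC2d pool 2 (0.245).

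Heat shock factor binds runs of inverted GAA units. The promoters of the 2 chaperone genes are shown because Hsph1 was called above control at both times and Stip1 at 2 days alone. The stretches of 120 bases before the start, from RefSeq on build GRCr8, are chr1:213657655-213657774 on the minus strand for Stip1 and chr12:10427248-10427367 on the plus strand for Hsph1. Capitals mark the letters TTCNNGAA, which read the same on both strands and are only a part of such a run.
Stip1: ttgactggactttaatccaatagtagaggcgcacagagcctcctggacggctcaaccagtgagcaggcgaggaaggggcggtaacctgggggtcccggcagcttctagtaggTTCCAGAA
Hsph1: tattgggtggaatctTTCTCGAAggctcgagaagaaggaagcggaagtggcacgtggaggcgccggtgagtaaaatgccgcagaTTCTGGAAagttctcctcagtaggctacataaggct
Stip1 holds 1 match, beginning 8 bases before the annotated start, and Hsph1 holds 2, the nearer one 36 bases before it. Such a match occurs in 1226 of 33469 rat promoter windows of that length (3.66%), and it says nothing of binding in these samples.

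Among all 39 heat shock proteins, Stip1 was the 1 called lower between 2 and 30 days, 0 were called higher and the median was -0.04. In AC2d against control, where 2.53% of all genes were called, 5 of the 39 were higher (0.663% of all genes) and 1 lower (1.86% of all genes). In AC30 against control, where 8.53% were called, 3 were higher (3.57% of all genes) and 3 lower (4.96% of all genes). These comparisons share arrays with the main one, so the counts stand side by side without a test between them. The abundant Hspa8, Hsp90aa1 and Hspb1 differed between AC30 and AC2d by -0.05, -0.12 and -0.11 log2 units and were not called. The 39 DNAJ co-chaperones had 0 calls between the heat groups (0.761% of all genes).

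Other genes above control at 2 days and lower at 30 days than at 2 days were Spetex2el3, Sult1c2, Lig4 and Phlda1, with the same limit of shared AC2d pools. Spetex2el3, a rodent gene of a testis-expressed family, measured 6.64 and 6.75 in control, 7.55 and 7.61 in AC2d and 6.88 and 6.99 in AC30. Its step from AC2d was -0.65 ± 0.09 (adjusted p = 0.00455), while AC30 stayed 0.24 above control (adjusted p = 0.128). Sult1c2, a cytosolic sulfotransferase, measured 4.22 and 4.52 in control, 5.04 and 5.09 in AC2d and 4.38 and 4.49 in AC30 (-0.63 ± 0.12, adjusted p = 0.0288). Only the AC2d pools of Sult1c2 were above 5. Lig4, the ligase that seals double-strand breaks of DNA, was named after its values were seen, as was Phlda1. Lig4 measured 7.45 and 7.41 in control, 7.99 and 7.98 in AC2d and 7.52 and 7.45 in AC30 (-0.50 ± 0.08, adjusted p = 0.00894), and it was high again in DeAC, at 8.10 and 8.23. Phlda1, a pleckstrin-like protein linked to cell stress, measured 9.32 and 9.30 in control, 9.81 and 9.79 in AC2d and 9.43 and 9.54 in AC30 (-0.31 ± 0.06, adjusted p = 0.0314). These 4 falls were called without AC30 pool 2, but not without AC30 pool 1 or either AC2d pool, with an adjusted p between 0.0542 and 0.299.

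Other genes that differed from control early were not called between the heat groups. H19, an imprinted non-coding RNA, measured 7.59 and 7.66 in control, 9.32 and 9.48 in AC2d and 9.07 and 8.98 in AC30. The step of -0.38 ± 0.09 was not called (adjusted p = 0.062), and without the control arrays it was (0.0207). Its imprinted neighbour Igf2, a fetal growth factor, measured 6.89 and 6.94 in control, 7.45 and 7.42 in AC2d and 7.06 and 6.94 in AC30 (-0.43 ± 0.09, adjusted p = 0.0602, and 0.0262 without the control arrays). Against control, H19 was 1.39 higher in AC30 (adjusted p = 1.81e-06), while Igf2 was 0.52 higher in AC2d (adjusted p = 0.0105) and 0.09 higher in AC30 (adjusted p = 0.712). Myh7, the slow myosin heavy chain, measured 11.24 and 11.77 in control, 12.80 and 12.82 in AC2d and 12.86 and 12.80 in AC30. The step between the heat groups was 0.02 ± 0.11 (adjusted p = 0.972), with a 95% interval from -0.22 to 0.26. Myh6, the fast heavy chain, differed by 0.10 (adjusted p = 0.232). Inha, the inhibin alpha subunit, measured 8.35 and 8.16 in control, 6.73 in both AC2d pools and 6.44 and 6.37 in AC30 (-0.33 ± 0.09, adjusted p = 0.115).

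Many cell division genes were lower than in control both early and late. Top2a, the topoisomerase that untangles chromosomes in division, measured 7.69 and 7.74 in control, 6.21 and 6.11 in AC2d and 6.16 and 6.47 in AC30, a step of 0.15 ± 0.11 (adjusted p = 0.678). Of 51 mitosis and cytokinesis genes, 0 were called between AC2d and AC30 (0.761% of all genes), with changes between -0.16 and 0.37. The same list had 31 members called lower in AC2d against control (1.86% of all genes) and 32 in AC30 against control (4.96% of all genes). In DeAC against control 29 were called lower (3.77% of all genes), and 0 were called higher in each. The 47 DNA replication genes and 16 core histones had 0 calls between the heat groups (0.761% of all genes).

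The pathways that the study brought forward gave few calls in this comparison, in which 0.761% of all genes were called. At that share, 0 or 1 calls are no result about lists of this size. The lists were chosen by the study on these samples, so their directions are not independent evidence. Of 28 p38 and MAP kinase genes, 24 PI3K-Akt genes, 45 chromatin modifiers and 5 linker histones, 0 were called in either direction. Of 29 DNA repair and PARP genes, Lig4 was the 1 called. Parp1, the poly(ADP-ribose) polymerase, differed by 0.20 (adjusted p = 0.0813, and 0.0406 without the control arrays), Mapk14, the p38 alpha kinase, by 0.08 (adjusted p = 0.776), Akt1 by 0.15 and Stat3 by 0.02. The 69 ribosomal proteins had 0 calls and a median of 0.04.

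Several fat genes were among the largest differences between the heat groups, without being called. Ucp1, the proton channel of brown fat mitochondria, measured 4.65 and 4.55 log2 units in AC2d and 7.06 and 7.0 in AC30. It was 8.43 in control pool 1, 4.50 in control pool 2 and between 4.49 and 4.67 in the DeAC and ReAC pools. The 2 AC30 pools and control pool 1 were therefore high and the other 7 pools low. The change of 2.44 ± 0.77 had an adjusted p of 0.194, and without the control arrays 2.11e-08. Pck1, Thrsp, Car3 and Adipoq, named after their values were seen, had the same 3 highest pools. Pck1, an enzyme of glyceride synthesis in fat, measured 6.03 and 6.20 in AC2d, 7.66 and 7.68 in AC30 and 8.58 and 5.92 in control (1.55, adjusted p = 0.228, and 8.11e-07 without the control arrays). Adipoq, the fat hormone adiponectin, measured 5.45 and 5.62 in AC2d, 6.82 and 6.46 in AC30 and 7.30 and 5.26 in control (1.10, adjusted p = 0.297, and 0.000796 without the control arrays). Thrsp and Car3, both abundant in fat, differed by 1.51 and 1.49, with an adjusted p of 0.398 and 0.538, and of 8.07e-05 and 2.27e-06 without the control arrays.

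Of 13 adipocyte markers, 0 were called, 7 were above 0 and the median was 0.05, and without the control arrays 4 were called higher (1.45% of all genes) and 1 lower (1.05% of all genes). The adipocyte sum was 12.35 in both AC2d pools and 12.25 and 12.31 in AC30. Of 5 brown adipocyte markers, Ucp1 was the 1 called without the control arrays, and Dio2, Elovl3 and Otop1 lay in the lowest 25% of all signals. The part of attached fat tissue in these differences was not tested.

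Most atrial markers lay above their AC2d level in AC30, without being called. Sln, sarcolipin, a regulator of the calcium pump that is abundant in atria, measured 12.43 and 12.46 in AC2d, 12.96 and 12.78 in AC30, 11.94 and 9.23 in control, 5.79 and 5.73 in DeAC and 11.39 and 11.49 in ReAC. Bmp10, an atrial growth factor named after its values were seen, as were Mybphl and Hamp, measured 11.09 and 11.25 in AC2d and 11.74 and 11.54 in AC30. The AC30 pools of both genes were the highest of all 10. Their changes of 0.43 ± 0.53 and 0.47 had an adjusted p of 0.838 and 0.763, and of 0.000764 and 0.00713 without the control arrays. Mybphl and Hamp differed by 0.73 and 0.68 (adjusted p = 0.607 and 0.667, and 0.000167 and 6.76e-05 without the control arrays). Of the 13 atrial markers 11 were above 0 with a median of 0.39, 0 were called, and 8 were called higher without the control arrays (1.45% of all genes). The atrial sum was 15.11 and 15.17 in AC2d, 15.53 and 15.40 in AC30 and 14.96 and 13.56 in control. Nppa, the atrial natriuretic peptide, differed by 0.15 (adjusted p = 0.901), and its relative Nppb, which the strained ventricle makes, by 0.37 ± 0.09 (adjusted p = 0.0871, and 0.000167 without the control arrays). The part of atrial tissue in the samples was not tested.

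**Figure D4:**
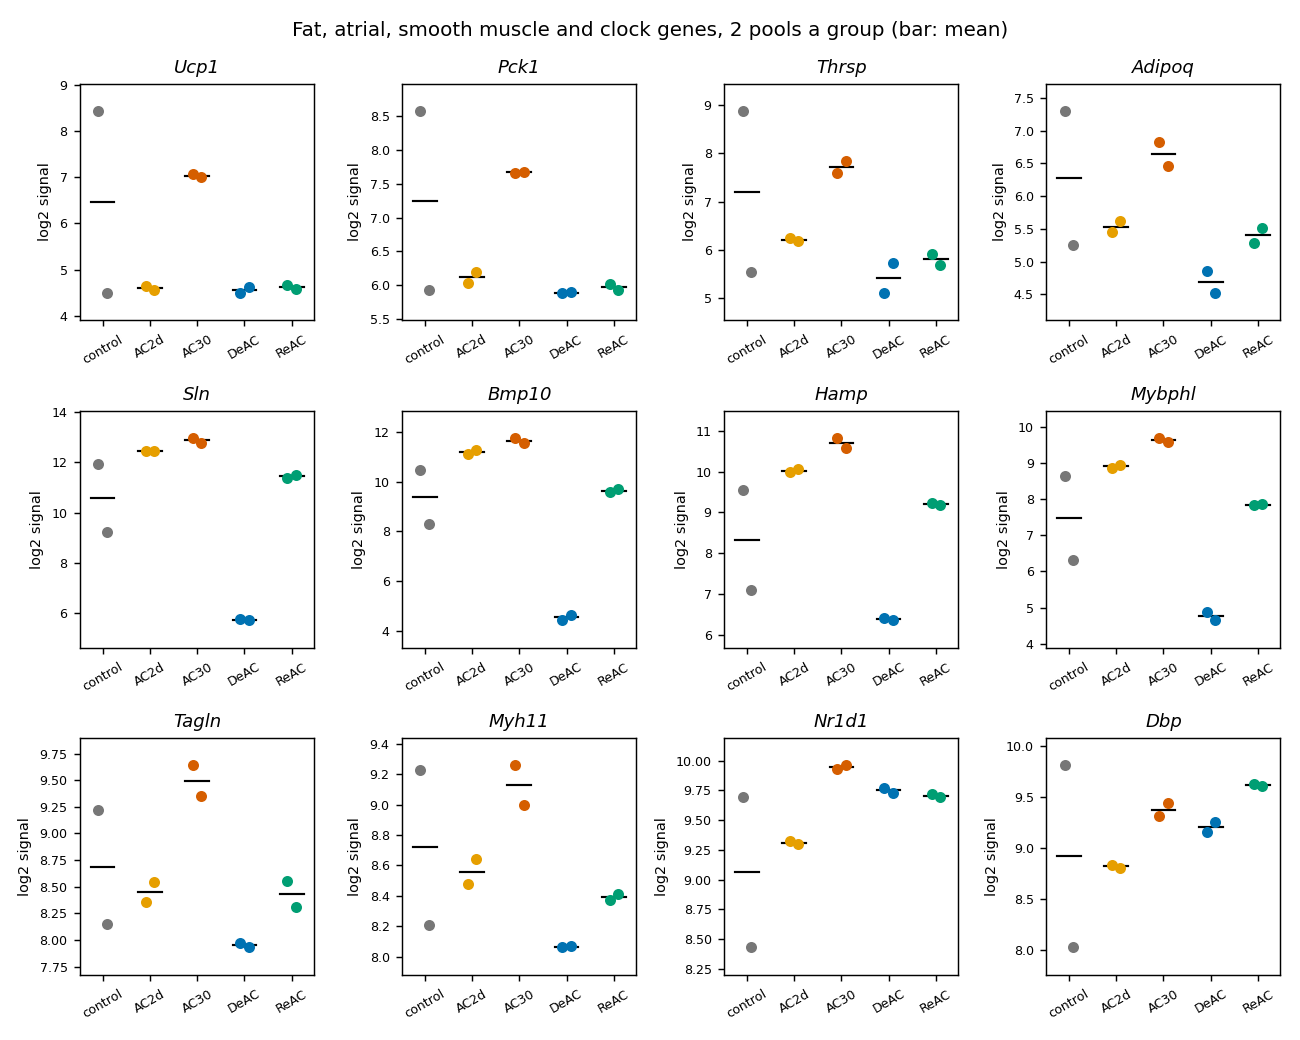
Each panel shows the log2 signal of 1 gene, with 1 point per pool and a bar at the group mean; the vertical axes differ and do not start at 0. The first row holds fat genes, the second atrial genes and the third smooth muscle and clock genes; in all 12 panels both AC30 pools lie above both AC2d pools, as in 23.1% of all genes, and the 2 control pools lie far apart.

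Among the other smooth muscle markers, some lay above their AC2d level and others below it. Tagln, an actin-binding protein of smooth muscle, and Myh11, its myosin heavy chain, were named after their values were seen. Tagln measured 8.36 and 8.54 in AC2d, 9.64 and 9.35 in AC30 and 9.22 and 8.15 in control (1.05, adjusted p = 0.0608, and 1.53e-05 without the control arrays). Myh11 differed by 0.57 (adjusted p = 0.279, and 0.000985 without the control arrays). Of 14 smooth muscle and pericyte markers 1 was called higher and 1 lower (14.3% together, against 0.761% of all genes), 6 lay above 0 and the median was -0.07. The summed signal was 13.70 and 13.78 in AC2d and 13.66 and 13.71 in AC30. The called members were Cnn1, which rose, and Rgs5, which fell.

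A last comparison sets the change from AC2d to AC30 beside the difference between DeAC and control, which shares no array with it. DeAC and control rats were both out of the heat and were labelled 3 months and 1 month old, and DeAC rats had been heated before, so this is not a comparison of age alone. In DeAC against control, 1178 genes (8.22%) were called, 638 higher (4.45%) and 540 lower (3.77%). Of the 47 genes higher in AC30 than in AC2d, DeAC lay above control in 20 (42.6%, against 50.1% of all genes), with 6 called higher and 11 called lower. Of the 62 genes lower in AC30, DeAC lay above control in 33 (53.2%), with 10 called higher and 14 called lower. Among the called genes of both sets, the direction of the difference between DeAC and control was therefore divided.

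Individual genes show each pattern. Penk was higher in DeAC than in control by 1.13 (adjusted p = 2.07e-05), and Reg3g was lower by -0.85 (adjusted p = 0.000977), each in the direction of its AC30 change. RT1-Da was higher by 0.46 (adjusted p = 0.000977). Hbb went against its AC30 change, at -0.26 (adjusted p = 0.00667), as did Alas2, at -0.30 (adjusted p = 0.0167), and Pdk4, at 0.48 (adjusted p = 0.00226). Car4, Enc1 and Cxcl13 were not called between DeAC and control (adjusted p = 0.374, 0.577 and 0.757).

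The difference between the 2 changes was tested in the same fit. It was called for 593 genes (4.14%), 308 (2.15%) where the AC30 change was the more positive and 285 (1.99%) where it was the more negative. Of the 109 genes, 28 of the 47 rises and 35 of the 62 falls were among them. Because these genes were picked on a change that enters the difference, no weight is given to that share. For Car4 the difference was -0.83 (adjusted p = 0.00345), for Hba-a3 0.89 (adjusted p = 0.000216) and for Cxcl13 1.40 (adjusted p = 0.00209). For Penk it was -0.32 (adjusted p = 0.224) and for RT1-Da 0.09 (adjusted p = 0.713), so those changes were not shown to differ from that between DeAC and control. By list, 8 of 13 atrial markers (61.5%) and 4 of 12 mesothelial and epicardial markers (33.3%) were called more positive, against 2.15% of all genes, and 0 more negative. The atrial sum was 12.91 and 12.92 in DeAC and 14.96 and 13.56 in control. The part of atrial tissue in the difference was not tested. The count of 593 ranged from 200 without AC2d pool 1 to 999 without control pool 2.

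**Figure D5:**
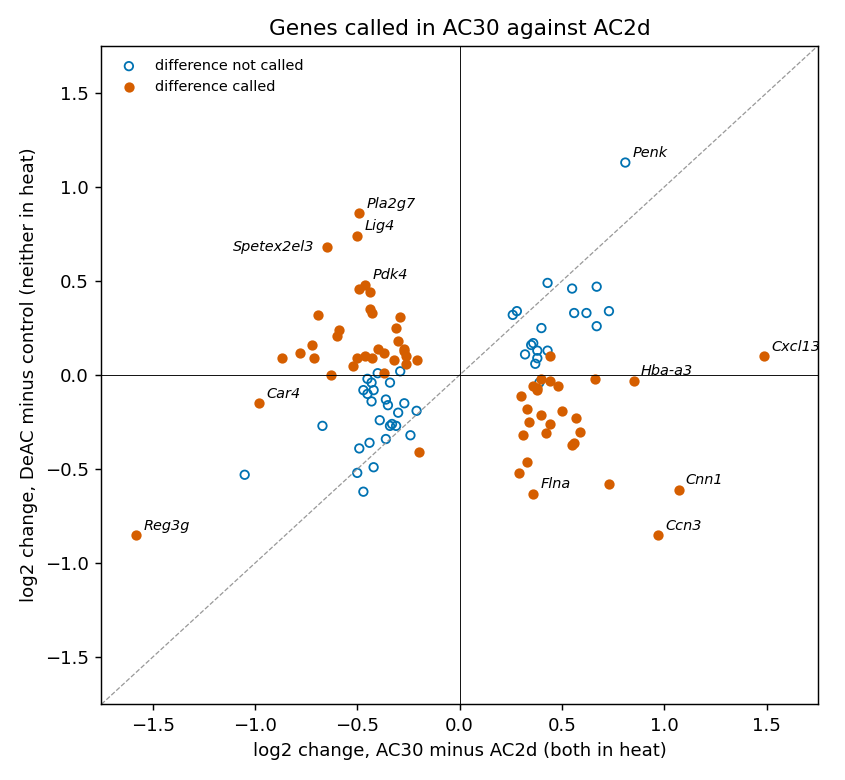
Each of the 109 called genes is placed by its log2 change from AC2d to AC30 (horizontal) and its log2 difference between DeAC and control (vertical), filled where the test of the difference between the 2 was called, and the dashed line marks equal changes. Penk lies near the line at 0.81 and 1.13, Cxcl13 lies near the horizontal axis at 1.49 and 0.10, and many genes lie in the quadrants where the 2 differ in sign.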

How the data were processed

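Total RNA of left ventricle, 1 pool of 5 animals per array, was labelled with biotin by an Affymetrix protocol, per the labels. The deposited table gives 1 log2 value for each of 27342 probe sets on 10 arrays. How the authors summarised and normalized it was not given in the sources used here. Another deposited table holds the authors' signed fold change (a score, negative for falls) against control for 651 probe sets, and it served to check the scale. Columns of the value table not used numbered 0. Of the probe sets, 15097 carried 1 gene symbol in the platform annotation, 323 several and 11922 none, and 15067 matched RefSeq genes (GRCr8). For the 499 genes with several probe sets the brightest was kept, which gave 14324 genes.

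Values were quantile normalized. A mean for each group was estimated over all 10 arrays in limma (version 3.58.1, R 4.3.3, functions lmFit and eBayes with trend), with 5 residual and 8.3 prior degrees of freedom. The two-sided p-values of a comparison were adjusted over all its genes (Benjamini-Hochberg), and genes were called at 0.05. An exact permutation test of 2 against 2 pools cannot go below p = 0.333. On simulated data with 200 changed genes in each of 5 runs, the AC30 against AC2d fit on 14324 genes found 59.4% of the genes changed by 0.5 log2 units and 95.2% of those changed by 1, and 3.5% of its calls were false. These percentages describe the simulated data alone. The share of false calls on the real arrays was not measured, and 3.5% is no estimate of it. On the real arrays the control pools lay over 1 log2 unit apart for 57 genes. The precision is limited by the number of arrays.

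The text names the 12 largest called changes per direction with pools that do not overlap and up to 4 called members of each of the 64 gene lists with at least 3 calls. It also names up to 3 markers of a cell type and part of a fixed set of genes, and says where others were chosen after their values were seen. Acta1, Hif1a, Postn, Thra, Thrb and Vegfa of the fixed set are not described above, and none was called between AC30 and AC2d. Postn was lower in AC30 and was called without the control arrays. The comparison, its gene lists and its named genes were chosen with earlier results of these data known. Lists are described by counts and medians without a set test. Alternatives were other scaling, no trend, dim genes left out, other treatment of probe sets, fewer groups in the fit, a replicate block, other thresholds and single arrays left out, where a lone pool is assumed to vary like other groups. Leaving out single control arrays for AC30 against AC2d was added after seeing the data. Promoters were read from RefSeq sequences 250 bases before each start, of which the last 120 were searched.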

Additional observations from a re-analysis of the deposited data

Results flagged for a closer look

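The change from AC2d to AC30 differed from the difference between DeAC and control for 593 genes by a test of the difference itself, which is 4.14% of the genes tested.

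Probe sets that carry no single gene symbol stand outside the comparisons above. Of 12245 such probe sets, 127 (1.04%) passed the same test between AC30 and AC2d when fitted by themselves, 20 higher and 107 lower in AC30, and they are not named here.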

How the results depend on the processing

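The 109 calls between AC30 and AC2d became 47 with the values as deposited, 32 with median scaling, 16 without the variance trend, 286 with the 4 AC30 and AC2d arrays alone, 358 without the control arrays, 24 with the control, AC2d and AC30 arrays alone, and 254 over all probe sets. They became 25 at an adjusted p under 0.01, 270 under 0.1 and 35 with a change of at least 0.5 log2 units. With the values as deposited, the adjusted p was 0.0592 for Ccn3, C6 and Cish, 0.0751 for Krt19 and 0.0556 for Nfkbia. Epas1 (0.078), Acadl (0.0756) and Rgs5 (0.0539) were also among the genes that lost their call there. Single arrays left out gave between 11 and 357 calls, and between 200 and 999 for the difference from the DeAC change. The causes were not tested, except that some settings fit fewer arrays. The share of calls that were higher was 43.1% in the values reported, 44.7% as deposited and 46.9% with median scaling, but 57.8% without the control arrays. Pool numbers were no evidence of pairing: deviations of pools with the same number correlated between -0.08 and 0.21. A replicate block gave 124 calls, 106 of them among the 109, and 665 for the difference. Not-called changes near 0 turned sign when a pool was left out, with ranges of -0.41 to 0.03 for Fkbp5, -0.02 to 0.18 for Mapk14, -0.01 to 0.05 for Myh7, -0.02 to 0.06 for Stat3 and -0.08 to 0.06 for Col1a1. Over 89 of the genes with values in the text, 1326 values under alternatives kept direction and call in 1007, lost the call in 211, gained it in 102 and turned sign in 6. Signals near background limit the dimmest genes, such as Cd3g.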

Other observations

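Genes of the circadian clock, the daily timer of each cell, differed between the heat groups without being called. They were chosen after their values were seen. Nr1d1, a repressor within the clock, measured 9.32 and 9.30 in AC2d, 9.93 and 9.96 in AC30 and 9.69 and 8.43 in control (0.63, adjusted p = 0.31, and 3.18e-06 without the control arrays). Dbp, a clock output factor, differed by 0.55 (adjusted p = 0.613, and 7.48e-05 without the control arrays). Bmal1, which drives both, measured 8.34 and 8.32 in AC2d and 7.93 and 8.04 in AC30 (-0.34, adjusted p = 0.133, and 0.011 without the control arrays). Of 15 clock genes 0 were called, and 3 were called higher and 1 lower without the control arrays, where 1.45% and 1.05% of all genes were. The hour at which hearts were taken is not known here.

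Cirbp, an RNA-binding protein known to be induced by mild cold in cultured cells, measured 8.68 and 8.64 in AC2d and 9.14 and 8.95 in AC30 (0.39 ± 0.10, adjusted p = 0.0878, and 0.00633 without the control arrays). Lipid synthesis genes lay mostly above 0, at 22 of 25 with a median of 0.16. Sc5d, an enzyme of cholesterol synthesis, was the 1 called among them, from 7.61 and 7.64 in AC2d to 7.94 and 8.06 in AC30 (0.38 ± 0.08, adjusted p = 0.0415). Without AC30 pool 1 or 2 or AC2d pool 1 or 2 its adjusted p was 0.138, 0.12, 0.343 or 0.274. Cirbp and Sc5d were likewise chosen after their values were seen.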
